A study of Solanum lycopersicum with 6 samples.

Results

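A set of 128 tomato genes rose strongly in leaves after 1 h of heat stress (HS) and was close to its starting level again after 6 h of HS. Sequencing was done on RNA of the fourth leaves of wild-type (WT) Solanum lycopersicum plants of the cultivar M82, a processing-type tomato common in the laboratory. The plants were 4 weeks old, had been grown at 24 °C with 16 h of light per day, and were held at 45 °C for 0, 1 or 6 h. Each time had 2 biological replicates, which gave 6 libraries of 25147160 to 30738632 counts. Both HS times were set against the 0 h libraries. Plants left at the growth temperature for 1 or 6 h were not analysed here, so heat and the hour of the day cannot be told apart. The deposited table pairs no gene with a name, so genes are given by their identifiers in the M82 gene models, version 1.1.0, and the leaf origin was not checked against marker genes.

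The members were chosen by their measured levels. Of 35603 genes in the table, 19123 held at least 50 counts in at least 2 libraries. For these, the level was taken as log2 of CPM plus 0.5, CPM being a gene's counts per 1000000 counts of its library, with library sizes scaled by the trimmed mean of M values (TMM), and averaged over the 2 replicates of a time. A member had to be higher by at least 3 at 1 h than at 0 h, and to differ by less than 0.5 between 6 h and 0 h. This took 128 of 19123 genes (0.669%), and 29.7% of the 431 genes with a rise of 3 or more at 1 h. Since both HS times entered the rule, so did the change from 1 to 6 h. The levels of the members are therefore given as a description, and where counts of members called by a fit over all genes are given, they are set by the rule and support nothing.

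Heat unfolds proteins, and plant cells answer through heat shock transcription factors, which bind short repeated elements in promoters and switch on genes for chaperones within minutes. The same factors are held in check by chaperones, and their activity falls again as chaperones accumulate, so an early peak of RNA that fades while heat goes on is a known form of the response. A gene's RNA also has to be degraded for its level to return, and the speed of that differs between genes.

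As the rule requires, the rise at 1 h was large at every starting level. The median CPM of the members was 1.76 at 0 h, then 34.0 at 1 h and 1.79 at 6 h, while it was 19.6, 20.7 and 21.0 for all tested genes. Per kb of gene length, the median level was 0.892, 22.8 and 0.787 CPM per kb for the members, against 5.07, 5.37 and 5.33 for all tested genes. Before HS, 56 members had a mean below 1 CPM, 38 lay between 1 and 10 CPM and 34 were at 10 CPM or more. At 1 h none was below 1 CPM, 33 lay between 1 and 10 CPM, 95 were at 10 CPM or more and 44 of these exceeded 100 CPM. At 6 h the 3 classes held 57, 36 and 35 members. The members thus ranged from genes that were barely detected in unheated leaves to genes above the median of all tested genes. In bulk leaf RNA, a change in the cells that carry a transcript and a change in RNA per cell cannot be told apart.

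**Figure D1:**
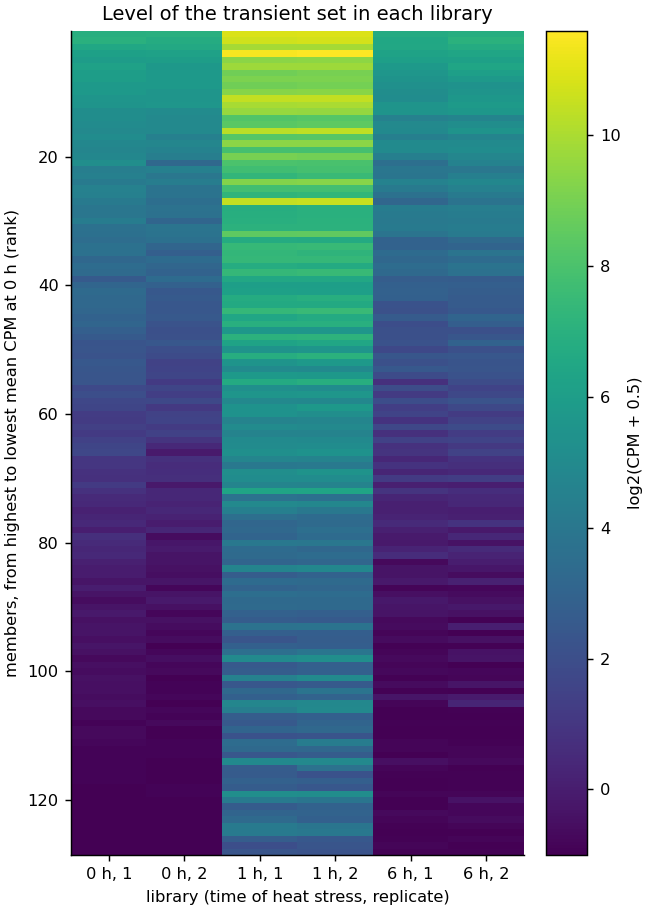
Level of each of the 128 members in each of the 6 libraries, as log2(CPM + 0.5) in colour, with members ordered from the highest to the lowest mean CPM at 0 h. Both 1 h libraries are brighter than the other 4 in every line, and both 6 h libraries resemble the 0 h libraries, as the choice of the members requires.

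The summed level of the members followed the same course. It was 1579 and 1370 CPM in the 0 h libraries, 25210 and 26206 CPM in the 1 h libraries, and 1326 and 1624 CPM in the 6 h libraries. The 6 h values enclosed the 0 h values. The 5 members with the highest level held 36.6% of the sum at 1 h. For the other 303 genes that rose by at least 3, the sums were 2818 and 2355 CPM at 0 h, 116748 and 121794 CPM at 1 h, and 10381 and 12386 CPM at 6 h. Their sum at 6 h lay above that at 0 h in both libraries.

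The median rise of the members was 3.75 on the log2 scale at 1 h, from 3.03 to 6.64, beside a median of 0.00 over all tested genes and of 4.07 over the other 303 strongly rising genes. A rise of 5 or more was seen for 16 members, one of 4 to 5 for 31 and one of 3 to 4 for 81, of which 52 lay below 3.5. The median rise was 3.64 for members below 1 CPM at 0 h, 3.88 for those at 1 to 10 CPM and 3.56 for those at 10 CPM or more. The rule holds each at 3 or more, and the pseudocount of 0.5 CPM lowers the rise of the first class most. The largest rise of any strongly rising gene was 10.44, so the steepest inductions of the series were not among the members. All 128 members were called higher at 1 h than at 0 h by edgeR at an adjusted p below 0.05, as were 32.2% of all tested genes, and all 128 were called lower at 6 h than at 1 h, against 31.7% of all tested genes. Both counts are set by the choice of the members. Without either 1 h library both were 67, since the other 61 members then fail the count filter, and with the genes kept on all 6 libraries both were 128. In each member the lower of the 1 h libraries exceeded every 0 h and 6 h library, by at least 5.54 times in CPM. The choice of the members largely brings this about, and no share over all tested genes is given beside it.

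**Figure D2:**
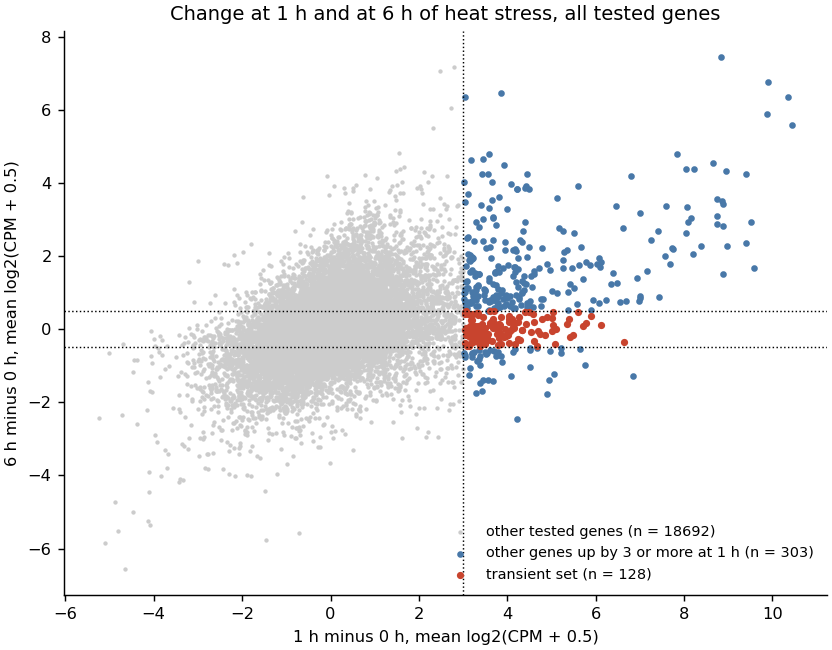
Change of all 19123 tested genes at 1 h (horizontal) and at 6 h (vertical) against 0 h, as differences of mean log2(CPM + 0.5), with 1 point per gene. The 128 members (red) fill the box that the dotted limits of 3 and 0.5 mark, most of the other 303 strongly rising genes (blue) lie above it, and their rise reaches 10.44.

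Among members with more than 3 counts in each 0 h library, Solyc01g106820.3 rose most. It spans 4034 bp of chromosome 1 (88811031 to 88815064, plus strand). Its level was 17.4 and 11.2 CPM at 0 h, 1392 and 1494 CPM at 1 h, and 8.56 and 13.6 CPM at 6 h. The 1 h libraries stood far above all others, and the 6 h and 0 h libraries overlapped. The mean at 1 h was 100.9 times that at 0 h and 130 times that at 6 h.

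Solyc08g075550.4 (chromosome 8, 60545355 to 60548552, minus strand) had the second largest rise of these members, from 1.25 and 0.803 CPM to 80.3 and 83.4 CPM. At 6 h it was at 1.34 and 1.05 CPM, with 1 library just above the 0 h range and the other within it. Its mean was 79.7 times higher at 1 h than at 0 h. Solyc07g040710.3 rose 75.8 times in mean from a lower level, at 0.459 and 0.241 CPM at 0 h, 24.99 and 28.1 CPM at 1 h, and 0.280 and 0.349 CPM at 6 h. Both of its 6 h values lay between its 0 h values.

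A pair of members on chromosome 2 reached high levels. Solyc02g077670.3 (42163509 to 42167669, minus strand) was at 30.4 and 30.3 CPM at 0 h, 1242 and 1337 CPM at 1 h, and 31.0 and 43.2 CPM at 6 h. Solyc02g088610.4 (50381716 to 50388829, minus strand) was at 70.4 and 73.9 CPM at 0 h, 2868 and 3090 CPM at 1 h, and 75.1 and 84.7 CPM at 6 h. The latter had the highest mean of all members at 1 h, 2979 ± 157 CPM (SD, n = 2). In both genes the 6 h libraries did not overlap the 0 h libraries and were the higher ones, by 0.27 and 0.14 on the log2 scale.

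Solyc06g008270.2 showed the widest scatter among these genes outside the peak. It was at 4.42 and 1.73 CPM at 0 h, 104 and 118 CPM at 1 h, and 1.15 and 3.29 CPM at 6 h. Its 2 replicates differed by more at 0 h than the mean of 6 h differed from the mean of 0 h. Solyc09g091180.3 was at 16.9 and 19.8 CPM at 0 h, 607 and 624 CPM at 1 h, and 23.9 and 27.5 CPM at 6 h. This gene had replicates that lay close together and kept a higher level at 6 h in both libraries, by 0.47, near the limit of the rule.

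The highest levels before HS among the members were those of Solyc10g078930.2, Solyc10g086410.3 and Solyc12g089210.2. Solyc10g078930.2 was at 118 and 124 CPM at 0 h, 1908 and 1947 CPM at 1 h, and 102 and 116 CPM at 6 h. Solyc10g086410.3 was at 129 and 107 CPM at 0 h, 1635 and 1748 CPM at 1 h, and 91.3 and 130.3 CPM at 6 h. Solyc12g089210.2 was at 89.5 and 96.7 CPM at 0 h, 958 and 939 CPM at 1 h, and 92.8 and 106.8 CPM at 6 h. Only Solyc10g078930.2 of these 3 had 6 h libraries apart from the 0 h libraries, and there the 6 h level was the lower. Their means rose 15.9, 14.3 and 10.2 times at 1 h.

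Per kb of gene length the order of the members changed. Solyc09g065610.2, the shortest member at 177 bp, was at 71.3 CPM per kb at 0 h and 2034 CPM per kb at 1 h. Its level by library was 11.9 and 13.4 CPM at 0 h, 349.5 and 370.6 CPM at 1 h, and 13.7 and 17.3 CPM at 6 h. Solyc03g120090.1 spans 918 bp and stood at 1500 CPM per kb at 1 h, from 46.7 and 47.2 CPM at 0 h, 1363 and 1391 CPM at 1 h, and 34.8 and 50.1 CPM at 6 h. Solyc10g078930.2 followed with 517 CPM per kb at 1 h. The length of a gene in the table is its whole span, introns included, which lowers these values for genes with long introns.

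Members with few or no counts before HS form the other end of the set. In 23 members both 0 h libraries held at most 3 counts, and in 9 of them both held 0 counts. At 6 h, 26 members were at no more than 3 counts in both libraries, and 19 were so at both times. TomatoPan006850, the only member whose identifier carries the TomatoPan prefix, was at 0.0417 and 0.0401 CPM at 0 h, 9.25 and 8.76 CPM at 1 h, and 0.0622 and 0.0582 CPM at 6 h. The table held 104 tested genes with that prefix. In 61 members only the 1 h libraries reached 50 counts, so these genes entered the tested set through the time at which they were high. The other 67 reached 50 counts in at least 1 further library, and 57 did so in all 6.

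Solyc12g011310.2 had the most counts at 1 h of the members with at most 3 counts in both 0 h libraries. It held 0 and 1 counts at 0 h, 983 and 843 counts at 1 h, and 2 and 2 counts at 6 h. The ratio of its 1 h to its 0 h level was 1750, with a 95% counting interval of 314 to 69170. Solyc02g069810.3 held 1 and 0 counts at 0 h, 836 and 708 counts at 1 h, and 7 and 4 counts at 6 h, a ratio of 1480 (95% counting interval 265 to 58490). Solyc07g066360.1 held 3 and 2 counts at 0 h, 561 and 725 counts at 1 h, and 0 and 1 counts at 6 h, a ratio of 247 (105 to 760.5). These intervals cover counting error only. The genes were picked for few counts at 0 h and many at 1 h, so the intervals are no test of the rise.

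Solyc03g020060.3 held 0 counts in both 0 h and both 6 h libraries, and 470 and 383 counts at 1 h. Against the floor of 3 counts over the 0 h group (0.0614 CPM) its level at 1 h was at least 272-fold higher. On the same floor Solyc07g009567.1 was at least 260-fold higher, with 0 and 0 counts at 0 h, 481 and 339 counts at 1 h, and 1 and 2 counts at 6 h. Solyc01g098070.1 was at least 254-fold higher, with 0 and 0, 461 and 340, and 0 and 9 counts. The pseudocount of 0.5 CPM sets the log2 rise of these 3 genes near 5, and it equally hides differences between 6 h and 0 h at this level.

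Across the 92 members with more than 3 counts in each 0 h library, the mean CPM rose between 8.33 and 100.9 times at 1 h, with a median of 16.0 times. What was left of the rise at 6 h, as a share of the rise in CPM at 1 h, had a median of -0.0883% over all 128 members and ran from -3.58% to 5.49%. The same share had a median of 6.71% over the other 303 strongly rising genes. The median difference of 6 h from 0 h was -0.01 for the members and 1.28 for the others, beside 0.03 over all tested genes. The members were chosen for this difference, so it is no test of it.

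Strongly rising genes did not separate into returning and persisting groups at the limits of the rule. Of the 431 genes, 25 differed at 6 h by -0.5 to -0.25, 41 by -0.25 to 0, 34 by 0 to 0.25 and 28 by 0.25 to 0.5. Beyond these limits, 76 lay between 0.5 and 1, 87 between 1 and 2, 44 between 2 and 3 and 50 at 3 or more, while 31 lay between -1 and -0.5 and 15 below -1. Of the 303 others, 257 were higher at 6 h by at least 0.5 and 46 were lower by at least 0.5.

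**Figure D3:**
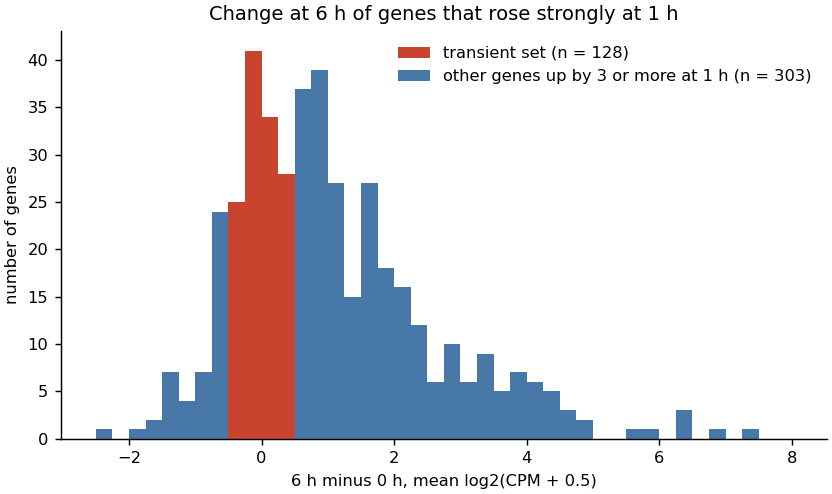
Number of genes by their change at 6 h against 0 h, in steps of 0.25 of mean log2(CPM + 0.5), for the 431 genes that rose by 3 or more at 1 h. The counts run on without a gap from the 128 members (red) to the 303 others (blue), and the upper tail is longer than the lower.

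The genes nearest each limit were picked for it, so those on either side had almost the same value there. Their levels could differ, with means at 0 h of 0.124 CPM for Solyc03g007200.2 (inside) and 0.552 CPM for Solyc03g120990.3 (outside). Just inside the limit at 1 h, Solyc01g108360.4 and Solyc03g123680.1 rose by 3.03 and 3.04, and just outside it Solyc04g051690.4 and Solyc05g050130.4 rose by 2.997 and 2.990. At the upper limit at 6 h, Solyc09g074730.3 and Solyc03g007200.2 were inside with 0.49 and 0.49, and Solyc03g120990.3 and Solyc06g065050.2 were outside with 0.50 and 0.51. At the lower limit, Solyc08g068730.1 and Solyc02g069800.1 were inside with -0.47 and -0.46, and Solyc12g036330.1 and Solyc04g040180.3 were outside with -0.51 and -0.51. Solyc06g065050.2, left outside the set, held 0 and 1 counts at 0 h, 536 and 537 counts at 1 h, and 4 and 13 counts at 6 h.

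The 6 h libraries lay above both 0 h libraries in 28 members and below both in 20, and the groups overlapped in 80. Groups that did not overlap thus made up 48 members (37.5%), against 78.9% of all tested genes, a difference that the rule itself brings about. By edgeR 13 members (10.2%) were called higher at 6 h than at 0 h and 5 (3.91%) lower, where 30.9% and 28% of all tested genes were called. The rule used this difference, so these counts are no test of whether the return was complete. At an unadjusted p below 0.05 by edgeR, 22 members were called, a count without a share over all tested genes beside it and equally no test. Among the 13 were genes with few counts, such as Solyc02g069810.3 with 1 and 0 counts at 0 h and 7 and 4 at 6 h, whose difference the pseudocount kept below 0.5. The direction depended on the 0 h libraries, the scaling and the tool. Without 0 h replicate 1 most of the calls were higher, and without 0 h replicate 2 most were lower. With library size alone as the scaling, 27 were higher and 1 lower. DESeq2 called 8 higher and 10 lower. Shares of all tested genes by direction are not given for these alternatives, so the shift is not read as particular to the members. Over all tested genes, 11651 were called between 0 and 6 h with library size alone and 10751 with DESeq2, beside 11250 in the main fit. Without either 1 h library, 9 members were called in all, and 11 with the genes kept on all 6 libraries.

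Solyc08g068730.1 shows how the spread at 0 h enters these values. It was at 8.30 and 4.86 CPM at 0 h, 166 and 186 CPM at 1 h, and 3.92 and 5.09 CPM at 6 h. Its 6 h libraries lay around the lower of the 0 h libraries. Solyc02g069800.1 had tighter replicates, at 35.9 and 30.2 CPM at 0 h, 286 and 304 CPM at 1 h, and 22.4 and 25.2 CPM at 6 h, and was below its starting level in both 6 h libraries. Solyc09g074730.3 was at 15.1 and 13.0 CPM at 0 h, 115 and 126 CPM at 1 h, and 19.1 and 20.7 CPM at 6 h, above its starting level in both.

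Replicates of the members were not scattered evenly. Among the 72 members at 1 CPM or more at 0 h, replicate 2 was above replicate 1 in only 19 (26.4%) at 0 h, but in 47 (65.3%) at 1 h and in 61 (84.7%) at 6 h. The corresponding shares over the 18386 tested genes at that level were 50.5%, 50.6% and 48.6%. The median difference of replicate 2 from replicate 1 was -0.27 on the log2 scale at 0 h, 0.05 at 1 h and 0.24 at 6 h, beside 0.00, 0.00 and -0.01 over all tested genes. The other strongly rising genes had medians of -0.20, 0.03 and 0.26 over 223 genes, so the offset was not particular to the members. In 44 of the 72 members (61.1%) replicate 2 was the lower at 0 h and the higher at 6 h, against 24.5% of tested genes. Members of the set share a library, and their number is no number of independent observations.

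**Figure D4:**
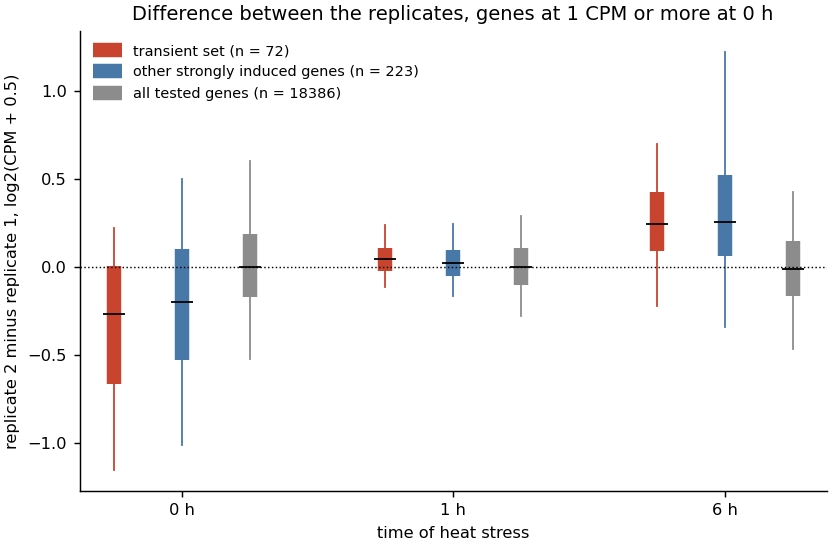
Difference of replicate 2 from replicate 1 in log2(CPM + 0.5) at each time, for genes at 1 CPM or more at 0 h: 72 members (red), 223 other strongly rising genes (blue) and 18386 tested genes (grey). Bars span the middle 50% of genes, lines the middle 90% and black ticks mark medians. The medians of the members are -0.27, 0.05 and 0.24, and those of all tested genes stay at 0.00, 0.00 and -0.01.

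Each replicate number by itself gave partly other genes. The rule picked 123 genes in the replicate 1 libraries and 147 in the replicate 2 libraries. Both picked 63 genes, 51.2% of the former and 42.9% of the latter. All 63 were members by arithmetic, since the mean of 2 values within a limit is within it too. Of the 123 genes, 117 rose by at least 3 in the replicate 2 libraries too, and of the 147 genes, 100 did so in the replicate 1 libraries. Both replicate numbers met the limit at 1 h in 107 members and the limit at 6 h in 70, which are a one-sided limit and a two-sided window and cannot be ranked against each other. In 67 members the difference of 6 h from 0 h had opposite signs in the 2 replicate numbers. The replicate numbers were not taken as a pairing, so all these counts depend on which libraries are set against each other.

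The rule used neither length nor position. The members were short genes, with a median span of 1993 bp against 3709 bp over all tested genes. The other strongly rising genes were as short, with a median of 2024 bp. Members under 1000 bp made up 23.4% (30 genes), against 11.6% of tested genes and 24.4% of the other strongly rising genes. Only 4 members (3.12%) spanned more than 10000 bp, against 9.31% of tested genes, and the longest spanned 29320 bp. The median was 1226 bp for members with at most 3 counts in both 0 h libraries and 2645.5 bp for members at 1 CPM or more at 0 h. Under the alternative limits, scalings, pseudocounts and filters, and without any 1 library, the median span of the picked genes was between 1724 and 2650 bp. The count filter and the pseudocount are not scaled by length, and 61 members reached 50 counts only in the 1 h libraries. Without 1 h replicate 1 or 2, where such genes fail the filter, the median span was 2641 and 2650 bp. With the genes kept on all 6 libraries it was 2029 bp in both cases.

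Members were found on all 12 chromosomes. Chromosomes 2 and 3 held 18 each, chromosome 7 held 15 (1.04% of its tested genes) and chromosome 11 held 3 (0.235%). In 4 cases a member lay directly beside another in the order of the gene models, and in all 4 both genes were on the same strand. No member overlapped another gene on its own strand, and 4 overlapped one on the opposite strand. Shares over all tested genes are not given beside these counts, so they are a description and no sign of clustering. The counting took the strand into account.

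The closest pair was Solyc09g005090.1 and Solyc09g005095.1 on chromosome 9, whose spans (60049 to 63210 and 63229 to 63713, plus strand) left a gap of 18 bp. Solyc09g005090.1 was at 2.63 and 1.65 CPM at 0 h, 42.1 and 51.5 CPM at 1 h, and 2.05 and 2.79 CPM at 6 h. Solyc09g005095.1 was at 0.751 and 0.642 CPM at 0 h, 11.6 and 9.93 CPM at 1 h, and 0.684 and 0.582 CPM at 6 h. Both peaked at 1 h and had 6 h libraries that overlapped those of 0 h. Whether reads of one gene run on into the other was not tested.

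On chromosome 2, Solyc02g069800.1 (39265487 to 39266494) and Solyc02g069810.3 (39272948 to 39283824) lay 6453 bp apart on the minus strand. They differed in starting level, since the first held 861 and 752 counts at 0 h and the second 1 and 0 counts. At 1 h they held 7749 and 7263 counts, and 836 and 708 counts.

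On chromosome 6, Solyc06g011380.2 (7060232 to 7062741) and Solyc06g011400.2 (7083274 to 7090558) lay 20532 bp apart on the plus strand. Solyc06g011380.2 was at 4.13 and 3.21 CPM at 0 h, 115 and 131 CPM at 1 h, and 4.60 and 4.91 CPM at 6 h. Solyc06g011400.2 was at 28.0 and 27.1 CPM at 0 h, 675 and 680 CPM at 1 h, and 32.0 and 31.8 CPM at 6 h. Both were higher at 6 h than at 0 h in each library, by 0.34 and 0.21. The next gene upstream of Solyc06g011380.2, Solyc06g011370.4, lay 12242 bp away on the same strand. It rose by 6.07 at 1 h and stayed outside the set with a difference of 0.72 at 6 h, so 3 genes in a row rose strongly there.

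On chromosome 4, Solyc04g014320.1 (4711986 to 4712312) and Solyc04g014330.1 (4714892 to 4715218) lay 2579 bp apart on the minus strand and had the same length, 327 bp. Solyc04g014320.1 held 1 and 0 counts at 0 h, 161 and 308 counts at 1 h, and 2 and 0 counts at 6 h. Solyc04g014330.1 held 2 and 1 counts at 0 h, 286 and 447 counts at 1 h, and 2 and 1 counts at 6 h. In both the replicates at 1 h differed widely and in the same direction. A further member, Solyc04g014290.1, lay 3 genes away within a stretch of 19.62 kb and held 5 and 1, 245 and 328, and 1 and 0 counts. The 2 genes between them held 0 counts in all 6 libraries. Whether these genes of equal length are near-identical copies that share reads was not tested, so their single values are uncertain.

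Longer runs, with up to 10 gene steps between members, were looked at after the values had been seen. They held 19 members in 8 runs. The longest, on chromosome 7 from 4656305 to 4993625, covered 337.3 kb and 13 genes, all 13 on the minus strand and all 13 with 0 counts in both 0 h libraries. It held 4 members, Solyc07g009545.1 (161 and 176 counts at 1 h), Solyc07g009585.1 (261 and 164), Solyc07g009567.1 (481 and 339) and Solyc07g014583.1 (167 and 122). Of the other 9 genes, none of which passed the count filter, Solyc00g500338.1 held 30 and 31 counts at 1 h and Solyc07g009563.1 held 15 and 14. No gene of the run exceeded 5 counts in a 6 h library. On chromosome 3, Solyc03g020070.4 and Solyc03g020060.3 lay within 7.416 kb on the plus strand, with 133 and 137 counts, and 470 and 383 counts, at 1 h. The next gene upstream, Solyc03g020080.4, rose by 3.71 and kept a difference of 1.57 at 6 h.

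**Figure D5:**
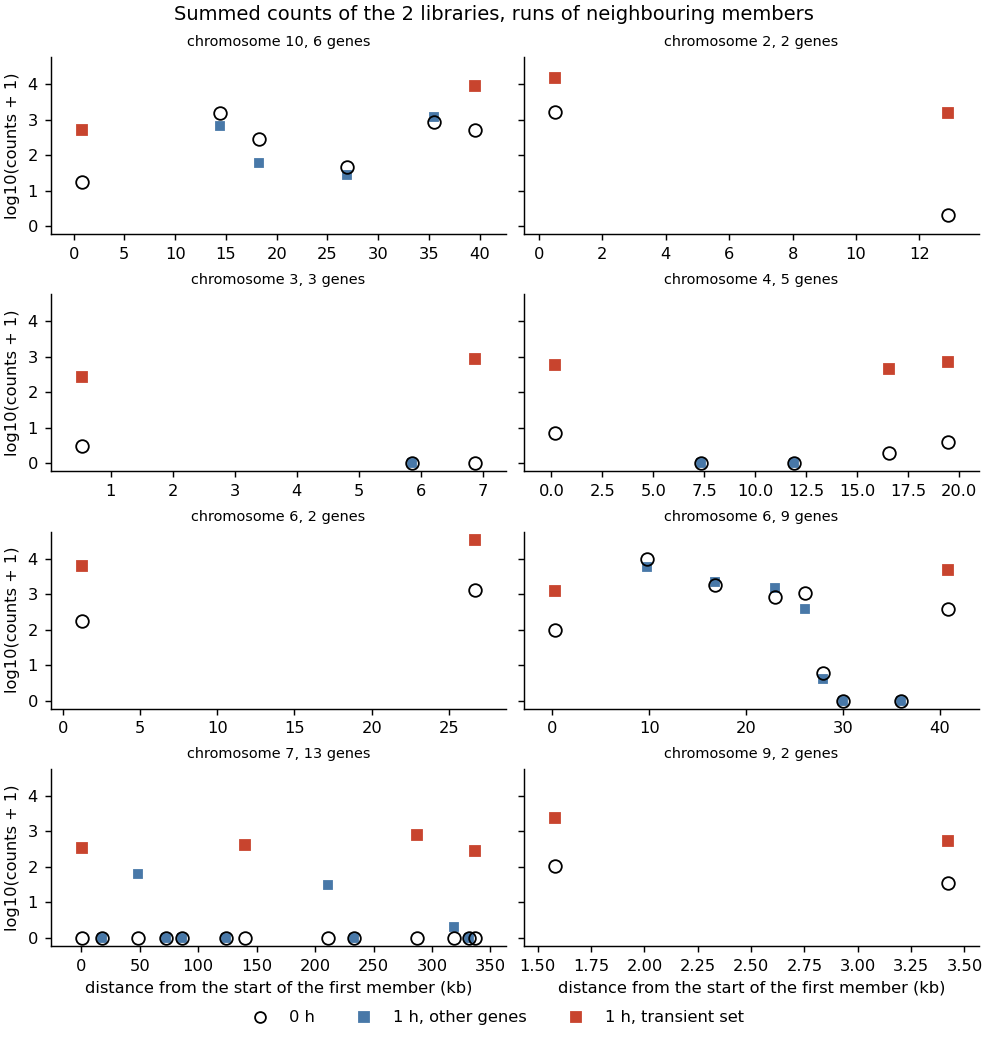
The 8 runs of neighbouring members, with the distance of a gene's middle from the start of the first member in kb (horizontal) and log10 of its summed counts plus 1 (vertical), for both libraries of 0 h (open circles) and both of 1 h (squares, red for members). In the chromosome 7 run all 13 genes are at 0 counts at 0 h and the 4 members stand out at 1 h, whereas genes between the members of the chromosome 10 run and of the run of 9 genes on chromosome 6 had counts at 0 h.

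Tested genes directly beside a member that were no members themselves numbered 152. Of these, 74 (48.7%) were called higher at 1 h than at 0 h by edgeR, where 32.2% of all tested genes were, and 39 (25.7%) were called lower, where 31.3% were. Their median change at 1 h was 0.31, and 14 (9.21%) rose by at least 3, as did 2.25% of all tested genes. The higher calls were found on either side and strand, with 18 of 46 downstream on the same strand, 22 of 41 upstream on the same strand, 17 of 34 downstream on the opposite strand and 17 of 31 upstream on the opposite strand. Over the other fits, the number called higher was between 50 and 75. These shares are given as a description, and no test of a difference from other genes was made. Multi-mapped and overlapping reads were counted. Whether neighbours share reads with a member, or reads of a member run on into them, was not tested.

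Among the neighbours that rose most, Solyc01g104740.3 rose by 7.26 at 1 h (edgeR log2 fold change 7.38, adjusted p = 1.3e-06). It lay 1858 bp upstream of the member Solyc01g150165.1, on the opposite strand, and was still higher by 2.43 at 6 h. Solyc09g082240.4 lay 1384 bp downstream of the member Solyc09g082230.1 on the same strand and rose by 5.59 (edgeR log2 fold change 5.73, adjusted p = 1.8e-07), with 0.68 left at 6 h. On its other side Solyc09g082230.1 had Solyc09g082220.1, 2129 bp away on the opposite strand, which rose by 3.33 and kept 1.22. This member itself was at 22.3 and 13.6 CPM at 0 h, 223 and 217 CPM at 1 h, and 17.5 and 22.4 CPM at 6 h. Its 6 h libraries overlapped those of 0 h. Other neighbours were below their start at 6 h. Solyc01g105770.2 lay 3358 bp upstream of the member Solyc01g105767.1 on the same strand, rose by 5.65 (edgeR log2 fold change 6.90, adjusted p = 8.7e-07) and differed by -0.54 at 6 h. Solyc08g068720.1 lay 4278 bp downstream of the member Solyc08g068730.1 on the same strand, rose by 3.75 (edgeR log2 fold change 4.60) and differed by -0.74 at 6 h. In both genes the edgeR value exceeded the rise, as the pseudocount brings about at low levels. Their differences at 6 h may therefore rest on few counts, and their edgeR values at 6 h are not given here.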

How the data were processed

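RNA-seq libraries were made per the labels with a directional kit (2 µg of total RNA) and read single-end over 75 bp. Raw counts per gene were deposited. Per the file headers the authors counted reads with featureCounts 2.0.0 on the M82 gene models 1.1.0 with strand option 2, a mapping quality of at least 30, and multi-mapped and overlapping reads allowed. The submitters' processing notes name Trimmomatic 0.38, Bowtie2 2.3.5, SAMtools 1.9, R 3.5.1 and DESeq2, whereas the methods of the study name STAR for RNA-seq. A paired-end option in the header leaves unsettled if reads or fragments were counted. Gene length is the whole span, so intronic reads were counted.

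Genes reaching 50 counts in 2 or more libraries were kept, scaled with TMM and fitted with edgeR 4.0.16 in R 4.3.3 on all 6 libraries (quasi-likelihood test, two-sided, Benjamini-Hochberg over 19123 genes, called at an adjusted p below 0.05). Residual degrees of freedom were 3 and the common biological coefficient of variation was 12.3%. P-values rest on the spread between 2 biological replicates per time. Scripts were tested on simulated data. The procedure for 0 counts used a floor of 3 counts, at most 0.126 CPM in a single library.

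The members and lists were chosen with earlier results of these data known. Named were the 10 largest rises among members with over 3 counts in each 0 h library, the 5 highest at 1 h, the genes nearest each limit, the 3 members with most counts at 1 h among those with at most 3 counts in both 0 h libraries, the 3 lowest (of 9 at 0 counts, those highest at 1 h) and 3 highest at 0 h, and neighbouring members. Others were named after their values were seen, namely TomatoPan006850, the further genes of the runs and the neighbours that rose. None of the identifiers (0 of 35603) was found in the RefSeq gene table, so lists by gene function, leaf markers and promoter motifs were not analysed here, and no sequence is given. Alternatives were DESeq2 1.42.0, other scalings, pseudocounts, filters and limits, a replicate block, and leaving out each library. Results for neighbours, lengths under other limits, and libraries left out with the genes kept on all 6 libraries were added after seeing the data.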

Additional observations from a re-analysis of the deposited data

How the results depend on the processing

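The set of 128 genes depended on its limits. A limit of 2 at 1 h gave 330 genes and one of 4 gave 47. A limit of 0.25 at 6 h gave 75 and one of 1 gave 235. A pseudocount of 5 gave 67 genes, of which 38 were members, and both limits met in each replicate number alone gave 63. With a library left out, the set held between 67 and 162 genes. It held 75 without 1 h replicate 1 and 67 without 1 h replicate 2, because genes with 50 counts only at 1 h then fail the filter. With the genes kept on all 6 libraries these were 137 and 125. RLE scaling gave 129 genes, of which 125 were members, and upper-quartile scaling gave 113, of which 108 were members. Library size alone gave 111 with 96 members, and edgeR's fitted fold changes gave 111 with 88. Upper-quartile scaling and library size alone moved the median change of all genes to -0.13 and -0.14 at 1 h and to 0.11 and 0.29 at 6 h.

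The number of members called at 6 h was 18, 28 with library size alone, 18 with DESeq2 (8 higher and 10 lower), and 9 to 25 with a library left out (11 without either 1 h library, genes kept on all 6). Over all tested genes, 12144 were called between 0 and 1 h, 11250 between 0 and 6 h and 12688 between 1 and 6 h, and with a library left out these were 8911 to 12134, 8214 to 10881 and 9444 to 13378. With the replicate number as a block they were 12088, 11117 and 12664, and 16 members were called at 6 h. The replicate numbers were not taken as a pairing, since the replicate differences of 0 h correlated with those of 1 h at -0.10 and with those of 6 h at -0.02 across genes, and those of 1 h and 6 h at 0.20. The numbers of members directly beside another ran from 2 to 31 under the other limits and left-out libraries. The 30 named members kept a positive change at 1 h under each alternative that gave a value, down to 1.01, but without either 1 h library 14 of them had no value, and with a pseudocount of 5 the change moved by more than the replicate spread in 24. Of the 30, 11 changed the sign of their difference at 6 h under at least 1 (5 under another scaling, 10 with a library left out). The lists by gene function and the promoter motifs that had been planned were not run, for want of names and sequences. Changes below about 3 counts per library, including at 6 h in 26 members, are beyond this depth.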
